A study of Mus musculus with 12 samples.

Results

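Interferon-stimulated genes were followed in the distal colon and the urinary bladder of control mice and of mice with a smooth muscle knockout of YAP and TAZ. The set held 10 genes, Ifit1, Ifit2, Ifit3, Isg15, Irf7, Mx1, Oas1a, Oasl2, Usp18, and Rsad2, of 54532 genes in the deposited tables. They were chosen by name as known targets of interferon signaling, with earlier results of these data known. All 10 genes were found in each of the 12 libraries, and all 10 were tested in both tissues. Male mice with floxed Yap1 and Wwtr1 (the genes of YAP and TAZ) were used at 5 to 7 weeks of age. The Y/T KO mice were positive for Myh11CreERT2, and the Ctrl mice were floxed mice negative for it. Both genotypes received tamoxifen, 1 mg per mouse and day in 5 daily injections, and tissue was taken 7 days after the first injection. Each genotype gave 3 libraries per tissue, 1 mouse per library. Mice 788 (Ctrl), 783, and 780 (both Y/T KO) gave both tissues, so the 12 libraries came from 9 mice. The Myh11 promoter restricts Cre to smooth muscle, while RNA came from the whole tissue, so cells that do not express Myh11 were not targeted. In such bulk RNA, fewer cells of a type and less RNA per cell cannot be told apart.

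Type I interferons bind the receptor made of IFNAR1 and IFNAR2, which activates the kinases JAK1 and TYK2. The signal passes through STAT2 and IRF9 to the interferon-stimulated response element in the promoters of target genes. Interferon gamma acts through IFNGR1 and IFNGR2, JAK1, and JAK2, and a different element, the gamma-activated site. The products of the 10 genes block viral RNA and protein synthesis (the IFIT, OAS, MX, and viperin proteins), modify proteins (ISG15), limit the response (USP18), or amplify it (IRF7). A low level of these transcripts is present in barrier tissues without infection.

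The promoters are shown first, since the response element is what these genes are known to have in common. Of the 10 genes, 8 had a promoter of 250 bases before to 50 bases after the transcription start in RefSeq (GRCm38.p6). The element was searched for on both strands as GAAA, any 2 bases, and GAAA again (TTTC, any 2 bases, and TTTC when read from the other strand), with overlapping matches counted. It was found in 5 of these 8 genes, compared with 3.99% of the 27025 genes in the same table, and in 17 of 36 other genes listed as type I interferon targets. Below, matches are in capitals with 20 bases on either side, written 5′ to 3′ on the strand of the gene. Isg15 (chr4:156200855-156200916, minus strand) held 3 overlapping matches. Oas1a (chr5:120907510-120907565, minus strand) held 2 overlapping matches. Rsad2 (chr12:26456543-26456592, minus strand) held 1 match, Ifit3 (chr19:34583353-34583436, plus strand) 2, and Ifit1 (chr19:34640765-34640833, plus strand) 2.
Isg15: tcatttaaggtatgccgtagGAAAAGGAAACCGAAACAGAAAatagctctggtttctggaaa
Oas1a: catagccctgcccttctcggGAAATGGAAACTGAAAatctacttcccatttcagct
Rsad2: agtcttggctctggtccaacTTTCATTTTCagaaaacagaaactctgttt
Ifit3: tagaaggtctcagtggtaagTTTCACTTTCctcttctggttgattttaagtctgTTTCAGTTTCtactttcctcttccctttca
Ifit1: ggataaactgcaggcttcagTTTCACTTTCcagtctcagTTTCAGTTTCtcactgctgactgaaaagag
In Isg15 and Oas1a the matches ran into one another, so that neighboring matches shared a GAAA. In Ifit1 and Ifit3 both matches lay on the opposite strand, and the match nearest the start was TTTCAGTTTC in both genes. With the start base counted as 0, the first bases of the matches were at -78, -72, and -66 in Isg15, -20 and -14 in Oas1a, -120 in Rsad2, -156 and -122 in Ifit3, and -104 and -85 in Ifit1. These letters were not in the windows of Oasl2, Irf7, and Ifit2. The letters TTCNNNGAA, which read the same on both strands and stand for the gamma-activated site, were in the windows of Oas1a and Ifit2 and in those of 9.55% of all genes in the table. Mx1 and Usp18 have no entry in the table.

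Depth ran from 2.80 to 3.94 aligned gigabases per library, and the coverage of the 10 genes from 1.55 reads per base (Mx1) to 122 reads per base. Levels are given in TPM, a measure per transcript length in which every library sums to the same total, as deposited. Group means and fold changes used TPM rescaled between the libraries of a tissue by factors of 0.960 to 1.10. Colon libraries had a summed level of 10 colon epithelium markers of 9771 to 12680 TPM, and bladder libraries one of 226 to 281 TPM, with Muc2 at 0 in every bladder. The 8 urothelium markers summed to 4566 to 6037 TPM in bladders and 27.6 to 40.4 TPM in colons. Yap1 was at 45.8 to 54.9 TPM in Ctrl colons and 41.3 to 47.0 TPM in Y/T KO colons, and at 98.5 to 110 TPM in Ctrl bladders and 69.4 to 72.1 TPM in Y/T KO bladders. The bladder groups did not overlap, with a log2 fold change of -0.54 (SE 0.08, adjusted p = 0.0625 by limma), while that in colon was -0.18 (SE 0.14, adjusted p = 0.697). Wwtr1 was at 16.9 to 21.5 TPM in Ctrl colons and 17.9 to 22.7 TPM in Y/T KO colons, and at 32.5 to 61.6 TPM in Ctrl bladders and 48.3 to 60.9 TPM in Y/T KO bladders, with log2 fold changes of 0.18 and 0.24. The TPM of a whole gene in whole tissue does not separate the deleted exons from the rest of the transcript. The 8 smooth muscle markers had log2 fold changes below 0 in both tissues, with medians of -0.43 in colon and -0.87 in bladder. A pair of colon libraries stood apart from the others over all genes: Y/T KO colon of mouse 780 was the highest of the 6 for 22.0% of genes tested and the lowest for 20.7%, and Ctrl colon of mouse 786 the highest for 24.2% and the lowest for 26.3%. The counts and medians over the 10 genes in colon are given with and without the former. Ifit3 and Ifit3b share 97.8% of bases over 97.4% of the Ifit3 transcript, Oas1a and Oas1g 97.6% over 98.7%, and Mx1 and Mx2 94.8% over 27.2%, so the division of reads within these pairs is uncertain.

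None of the 10 interferon-stimulated genes passed the test (adjusted p under 0.05, limma) between Y/T KO and Ctrl in colon, where 0.137% of the 17500 genes tested did. None passed in bladder, where 0.302% of 18237 genes did. In colon 7 of the 10 log2 fold changes were above 0, with a median of 0.22, where 50.9% of all genes tested lay above 0 with a median of 0.01, and none of the 10 had genotypes without overlap, where 8.24% of all genes were higher and 7.87% lower in Y/T KO without overlap. Without the Y/T KO colon library of mouse 780, none of the 10 was above 0 and the median was -0.21, while 50.8% of all genes tested lay above 0. Without that of mouse 783 instead, the median was 0.58, so the sign of the median depended on the library left out. In bladder 5 of the 10 log2 fold changes were above 0, with a median of 0.00, where 50.2% of all genes lay above 0. Before adjustment, 0 of the 10 genes had a two-sided limma p under 0.05 in colon, where 9.73% of genes did. In bladder Isg15 and Oasl2 did, both lower in Y/T KO, where 8.20% of genes did in that direction. With 3 libraries against 3, an exact permutation test of a single gene cannot give a p below 0.1, and p-values here measure the spread between mice.

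**Figure D1:**
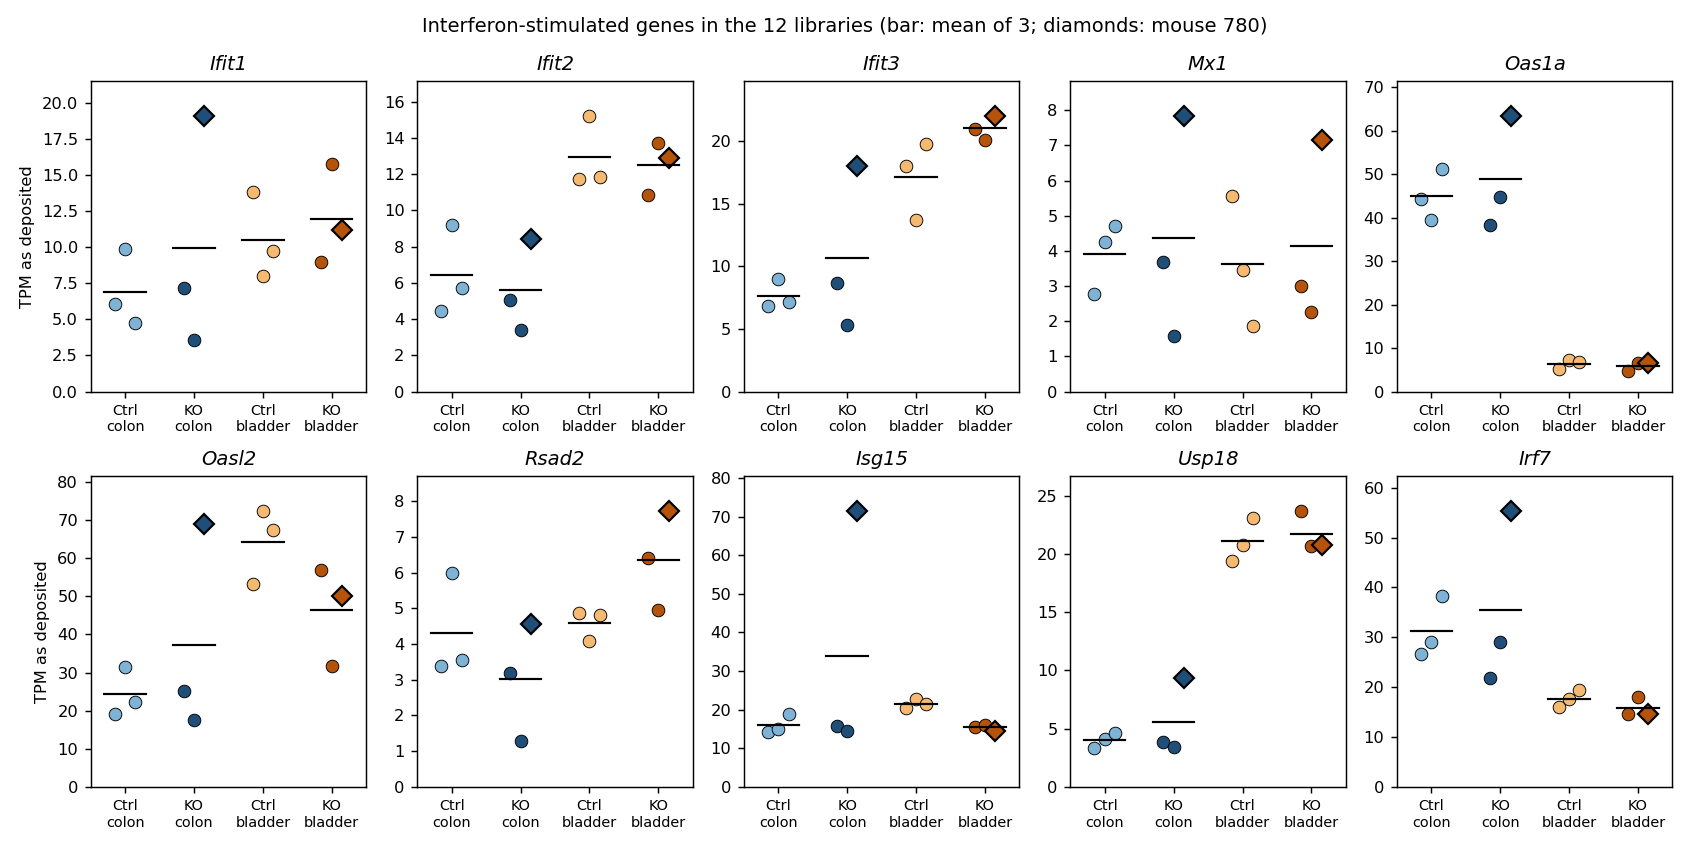
Level of each of the 10 interferon-stimulated genes (TPM as deposited, axes from 0) in the 12 libraries, by tissue and genotype, 1 point per library, with a bar at the mean of 3 and diamonds for mouse 780. The Y/T KO colon of mouse 780 lies above the other Y/T KO colons for every gene, and Oas1a is at 38.4 to 63.5 TPM in colons and 4.74 to 7.16 TPM in bladders.

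Ifit1, Ifit2, and Ifit3 encode tetratricopeptide repeat proteins that bind viral RNA or translation factors and lie in one cluster on chromosome 19. Ifit1 (chr19:34640871-34650009) was at 6.04, 9.91, and 4.73 TPM in the Ctrl colons of mice 788, 786, and 787. The Y/T KO colons of mice 759, 783, and 780 held 7.20, 3.60, and 19.1 TPM, and libraries are given in this order throughout. The Y/T KO colons held both the lowest and the highest value, and the log2 fold change was 0.30 (SE 0.58, adjusted p = 0.88) with all 6 libraries and -0.34 (SE 0.38, adjusted p = 0.917) without mouse 780. In bladder the Ctrl mice 784, 785, and 788 had 13.9, 8.02, and 9.72 TPM, and the Y/T KO mice 782, 783, and 780 had 8.96, 15.8, and 11.2 TPM. The bladder groups overlapped, with a log2 fold change of 0.18 (SE 0.30, adjusted p = 0.815).

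Ifit2 (chr19:34550694-34576419) was at 4.45, 9.18, and 5.73 TPM in Ctrl colons and had 5.03, 3.42, and 8.44 TPM in those of Y/T KO, with a log2 fold change of -0.19 (SE 0.37). Bladder values were 11.8, 15.2, and 11.9 TPM for Ctrl, while Y/T KO had 10.8, 13.7, and 12.9 TPM, a log2 fold change of -0.05 (SE 0.18). The groups overlapped in both tissues. Ifit3 (chr19:34583531-34588731) was at 6.80, 8.99, and 7.13 TPM in Ctrl colons, and had 8.68, 5.32, and 18.0 TPM in those of Y/T KO. For bladder the Ctrl libraries gave 18.0, 13.7, and 19.8 TPM, against 20.9, 20.1, and 22.0 TPM from Y/T KO. The bladder groups of Ifit3 did not overlap, as was the case for 10.6% of all genes tested in the same direction. The means were 21.0 ± 0.908 TPM in Y/T KO and 17.1 ± 2.96 TPM in Ctrl (SD, n = 3 each, rescaled), and the log2 fold change of 0.31 (SE 0.15, adjusted p = 0.398) did not pass.

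Mx1, a dynamin-like GTPase that restricts viruses in the nucleus, was the least covered of the 10 genes. Mx1 (chr16:97447035-97462907) was at 2.76, 4.24, and 4.70 TPM in Ctrl colons and reached 3.69, 1.57, and 7.85 TPM in those of Y/T KO. The Ctrl bladders held 5.57, 3.46, and 1.86 TPM, those of Y/T KO 3.01, 2.25, and 7.15 TPM. Its standard error was 0.55 on the log2 scale in each tissue, larger than either fold change (-0.05 in colon and 0.14 in bladder). Mouse 780 gave the highest Mx1 level of the Y/T KO group in both of its tissues.

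Oas1a and Oasl2 belong to the 2′-5′-oligoadenylate synthetase family, of which the first makes the oligoadenylates that activate RNase L. Oas1a (chr5:120896256-120907521) was at 44.3, 39.4, and 51.2 TPM in Ctrl colons, and had 38.4, 44.8, and 63.5 TPM in those of Y/T KO. Bladder values were 5.28, 7.16, and 6.75 TPM for Ctrl, while Y/T KO had 4.74, 6.67, and 6.46 TPM. The genotypes overlapped in both tissues, with log2 fold changes of 0.13 (SE 0.23) and -0.11 (SE 0.22). Oasl2 (chr5:114896936-114912234) was at 19.1, 31.5, and 22.1 TPM in Ctrl colons and had 25.2, 17.6, and 69.1 TPM in those of Y/T KO. For bladder the Ctrl libraries gave 53.1, 72.5, and 67.5 TPM, against 57.0, 31.8, and 50.1 TPM from Y/T KO. The bladder of the Y/T KO mouse 782 lay within the Ctrl range and the other two below it, and the log2 fold change was -0.51 (SE 0.21, unadjusted p = 0.0495, adjusted p = 0.335 by limma).

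Rsad2 encodes viperin, a radical SAM enzyme that makes a chain-terminating nucleotide. Rsad2 (chr12:26442746-26456452) was at 3.38, 5.99, and 3.55 TPM in Ctrl colons, and reached 3.20, 1.27, and 4.57 TPM in those of Y/T KO. The Ctrl bladders held 4.89, 4.09, and 4.82 TPM, those of Y/T KO 6.40, 4.96, and 7.74 TPM. Its log2 fold change in colon was -0.59 (SE 0.46, adjusted p = 0.693) with all 6 libraries. With each library left out in turn it ran from -0.98 to -0.076, so its size depended on single libraries. It was the only one of the 10 genes that stayed on one side of 0 in colon in this way. Without mouse 780 the colon value was -0.98 (SE 0.43, adjusted p = 0.845) and the groups did not overlap, as was the case for 10.9% of all genes in that direction. In bladder the groups did not overlap in the opposite direction, as was the case for 10.6% of all genes. The log2 fold change there was 0.44 (SE 0.20, adjusted p = 0.37).

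Isg15 encodes a ubiquitin-like protein that is attached to other proteins, and Usp18 the protease that removes it and also binds IFNAR2 to limit the response. Isg15 (chr4:156199424-156200818) was at 14.3, 15.1, and 18.9 TPM in Ctrl colons and had 15.8, 14.5, and 71.6 TPM in those of Y/T KO. The first 5 of these libraries lay within 14.3 to 18.9 TPM and mouse 780 was 4.84 times the mean of the other Y/T KO colons, the highest such ratio of the 10 genes. Bladder values were 20.5, 22.7, and 21.5 TPM for Ctrl, while Y/T KO had 15.6, 16.0, and 14.5 TPM. The bladder groups did not overlap, as was the case for 11.4% of all genes in that direction, with means of 15.4 ± 1.16 TPM in Y/T KO and 21.6 ± 1.05 TPM in Ctrl (SD, n = 3 each, rescaled). The log2 fold change of -0.48 (SE 0.11) had the lowest p-value of the 10 genes in bladder (unadjusted p = 0.00327 by limma) and an adjusted p of 0.148, which ran from 0.144 to 0.745 over the alternatives tried. In colon the log2 fold change was 0.70 (SE 0.61) with all libraries and -0.05 (SE 0.22) without mouse 780.

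Usp18 (chr6:121245906-121270917) was at 3.35, 4.10, and 4.66 TPM in Ctrl colons, and had 3.82, 3.37, and 9.38 TPM in those of Y/T KO. For bladder the Ctrl libraries gave 19.4, 20.8, and 23.1 TPM, against 23.7, 20.7, and 20.8 TPM from Y/T KO. Its log2 fold change in bladder was 0.04, with the smallest standard error of the 10 genes (0.10), and the groups overlapped in both tissues. Irf7 (chr7:141262706-141266481), the transcription factor that amplifies type I interferon production, was at 26.6, 29.0, and 38.2 TPM in Ctrl colons and reached 21.7, 29.0, and 55.4 TPM in those of Y/T KO. The Ctrl bladders held 16.0, 17.5, and 19.3 TPM, those of Y/T KO 14.6, 18.0, and 14.7 TPM. The genotypes overlapped in both tissues, with log2 fold changes of 0.12 (SE 0.35) and -0.16 (SE 0.14).

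**Figure D2:**
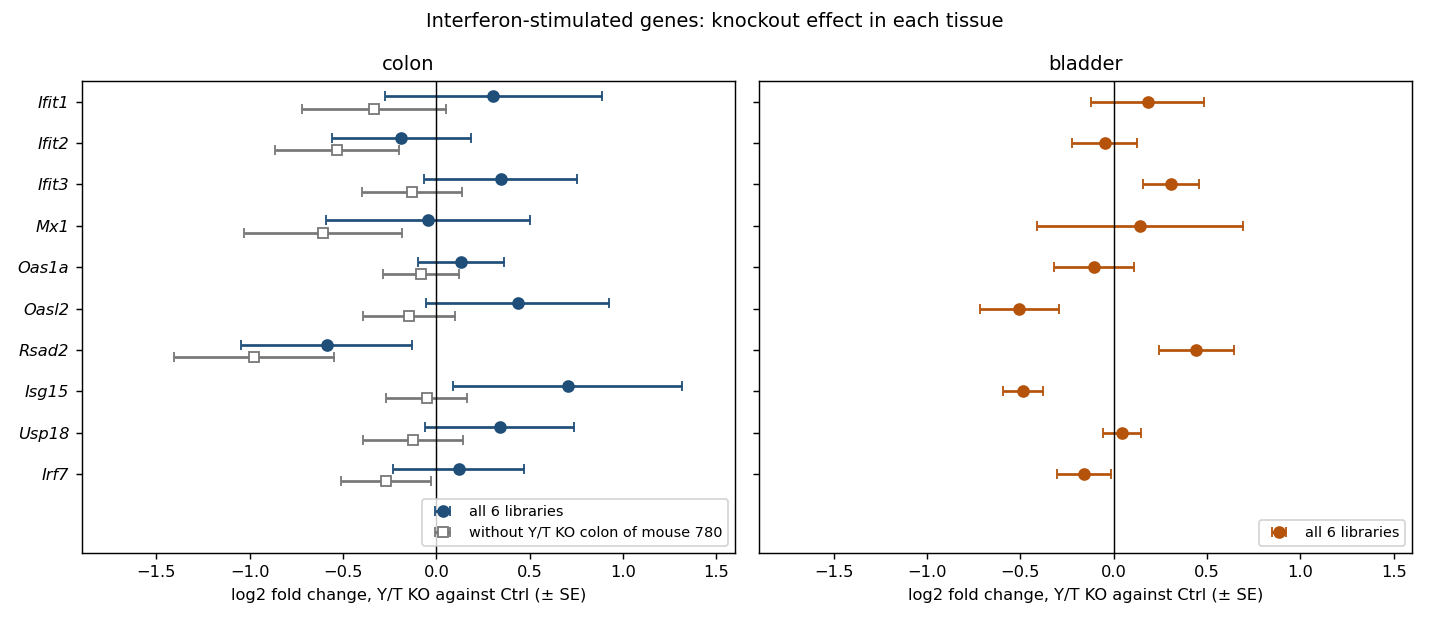
Log2 fold change of Y/T KO against Ctrl for each of the 10 genes in colon (left) and bladder (right), points with standard errors; open squares in colon leave out the library of mouse 780. All 10 squares lie below 0, and the smallest errors are those of Usp18 and Isg15 in bladder (0.10 and 0.11).

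Whether the genotype effect differed between the tissues was tested in 1 model over all 12 libraries. None of the 10 genes passed, where 0.0491% of the 16298 genes tested did. The difference of the colon and bladder effects ran from -1.03 (SE 0.55) for Rsad2 to 1.19 (SE 0.69) for Isg15 on the log2 scale, with adjusted p from 0.457 to 0.979. Oasl2 followed Isg15 at 0.94 (SE 0.59).

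The Y/T KO colons differed widely among themselves. On the rescaled scale the colon of mouse 780 was the highest of the 6 colons for 9 of the 10 genes, where 22.0% of all genes tested were highest there, and Rsad2 was highest in Ctrl mouse 786. All 10 genes lay above their tissue mean in mouse 780, by 0.48 to 1.86 on the log2 scale with a mean of 1.04. Against the mean of the other two Y/T KO colons, mouse 780 was 1.56 times as high for Oas1a, 2.04 for Ifit2, 2.09 for Rsad2, 2.23 for Irf7, 2.63 for Ifit3, 2.67 for Usp18, 3.05 for Mx1, 3.31 for Oasl2, 3.62 for Ifit1, and 4.84 for Isg15. The colon of mouse 783 stood at the other end, with a mean of -0.65, no gene above its tissue mean, and the lowest of the 6 values for 7 of the 10 genes, where 16.7% of all genes tested were lowest there. The other 4 colons had means of -0.28 (Ctrl 788), 0.02 (Ctrl 786), 0.02 (Ctrl 787), and -0.16 (Y/T KO 759). The summed level of the 10 genes was 327 TPM in the colon of mouse 780 and 124 to 161 TPM in the other 5 colons. In its bladder mouse 780 was not set apart, with a mean of 0.12, 6 of 10 genes above their tissue mean, and a summed level of 168 TPM, against 150 to 186 TPM in the other 5 bladders. These libraries were labelled only as Y/T KO, so the contrast between mice was not tested.

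**Figure D3:**
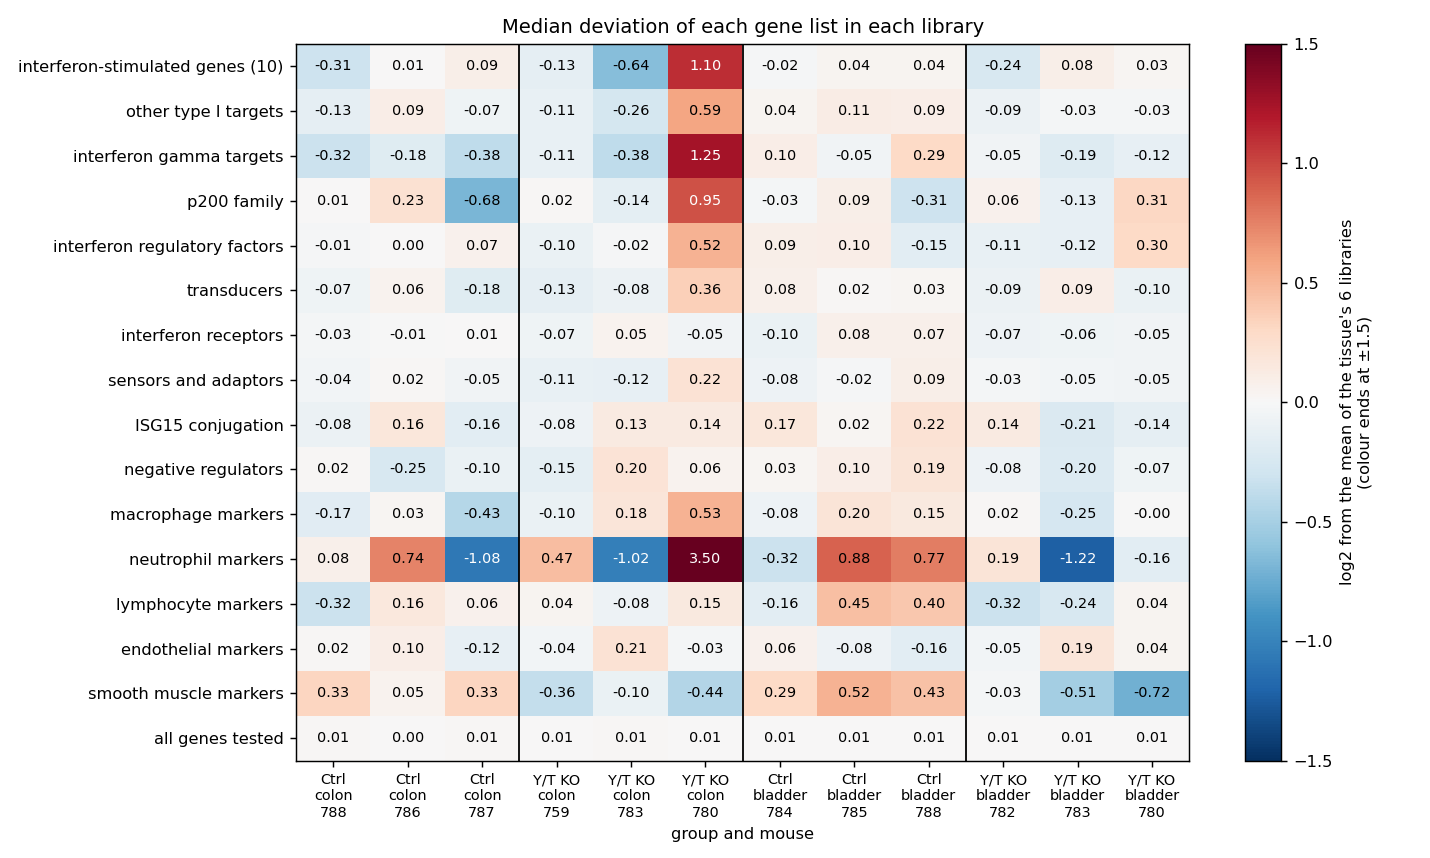
Median deviation of each gene list (rows) in each library (columns), as log2 from the mean of the 6 libraries of its tissue, red above and blue below, with the color scale ending at 1.5 in both directions. In the colon of mouse 780 the median was 1.10 for the 10 genes, 1.25 for the interferon gamma targets, and 3.50 for the neutrophil markers, and all genes tested lie at 0.00 or 0.01 in every library. S100a8 and S100a9 were at 0 TPM in the colon of mouse 783, which lowers their tissue means. The size of the neutrophil value therefore depends on the pseudocount.

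Other genes of the response were also highest in the colon of mouse 780. Of the 44 other type I interferon targets tested (of 46 listed), 31 were highest there, and of the 27 interferon gamma targets tested (of 33 listed) 26, against 22.0% of all genes. The summed level of the interferon gamma targets was 1045 TPM in mouse 780 and 453 to 520 TPM in the other 5 colons. Among them, chosen after their values were seen, Gbp2, a guanylate-binding protein, was at 133 TPM against 28.8 to 49.1 TPM in the other 5 colons. Igtp, an immunity-related GTPase, was at 81.1 TPM against 12.2 to 18.9 TPM. The chemokine Cxcl10 was at 29.8 TPM against 1.34 to 4.54 TPM, and Cxcl9 at 6.90 TPM against 0.145 to 0.562 TPM. The transcript of interferon gamma itself (Ifng) was at 1.11 TPM in mouse 780, 0.124 TPM in Y/T KO mouse 759, and 0 in the other 4 colons. Socs3, an inhibitor of cytokine signaling, was at 102 TPM against 9.12 to 17.5 TPM. In the bladder of mouse 780, 0 of the 27 interferon gamma targets were the highest of the 6 bladders, where 16.6% of all genes were.

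Markers of other cells moved with the same library in part. The 6 neutrophil markers summed to 353 TPM in the colon of mouse 780, to 115 and 228 TPM in the other Y/T KO colons, and to 136 to 198 TPM in Ctrl colons, and 4 of the 5 tested were highest in mouse 780. S100a8 was at 63.9 TPM there and at 0 to 20.5 TPM in the other 5 colons, and S100a9 at 93.5 TPM against 0 to 25.1 TPM, while Ly6g was at 164 TPM within the 112 to 201 TPM of the others. Ly6g was the largest part of the sum in every colon but did not follow S100a8 and S100a9. In the colon of mouse 783 it was at 112 TPM with both at 0. In bladders it did not exceed 0.299 TPM, while S100a9 reached 115 TPM. The sums are thus not a measure of neutrophils alone. The 10 macrophage markers summed to 874 TPM in mouse 780, 578 and 797 TPM in the other Y/T KO colons, and 447 to 617 TPM in Ctrl colons, with 8 of 10 highest in mouse 780. Mouse 783, with the lowest mean of the interferon-stimulated genes, had 797 TPM of them, the next highest sum. Of the 10 macrophage markers, 9 had log2 fold changes above 0 in colon, with a median of 0.36. Without mouse 780 it was 8 of 10, with a median of 0.22. On the rescaled scale 4 were higher in Y/T KO without overlap and 0 lower, where 8.24% and 7.87% of all genes were. Without mouse 780 the same counts held, where 11.4% and 10.9% of all genes did so. Of the 8 lymphocyte markers tested 2 were highest in mouse 780, and of the 8 smooth muscle markers none. Neither the neutrophil list nor the macrophage list had a marker at 0 in every library of a colon group. The part of these cells in the result was not tested.

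The ligands were at or near 0. Of 21 interferon genes, 18 were listed at 0 in every library, among them Ifnb1 and the Ifna genes. Ifne, an interferon made by epithelia of the reproductive tract, was above 0 in bladders only, where the Ctrl libraries had 1.13, 0.38, and 0.791 TPM and those of Y/T KO 0.321, 0.352, and 0.148 TPM. Ifnz did not exceed 0.12 TPM. No ligand passed the filter on low values, so none was tested.

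The receptor and transducer genes described here were present in all libraries, and none of them passed the test between genotypes in either tissue. Ifnar1 was at 25.5 to 29.8 TPM in Ctrl colons and 25.8 to 30.3 TPM in Y/T KO colons, with a log2 fold change of 0.06. In bladders Ifnar1 was at 39.6 to 45.7 TPM in Ctrl and 36.6 to 40.3 TPM in Y/T KO (-0.15). Ifnar2 had log2 fold changes of -0.13 in colon and 0.02 in bladder. Both chains of the interferon gamma receptor were measured, Ifngr1 with -0.30 in colon and -0.23 in bladder, and Ifngr2 with 0.15 and -0.03. The lambda receptor chains had -0.12 and -0.17 (Ifnlr1) and 0.17 and -0.03 (Il10rb, shared with the interleukin-10 receptor). In colon, on the rescaled scale, the genotypes of Ifngr1 and Ifnlr1 did not overlap, both lower in Y/T KO, where 7.87% of all genes did so. As deposited both genes overlapped. Ifngr1 was at 159.2 TPM in Ctrl mouse 787 and 163.4 TPM in Y/T KO mouse 759. Ifnlr1 was at 10.07 TPM in Ctrl mouse 788 and 10.11 TPM in Y/T KO mouse 783. In bladder, 1 of the 6 receptor genes was lower in Y/T KO without overlap on the rescaled scale, where 11.4% of all genes were.

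Among the transducers, the kinase genes Jak1, Jak2, and Tyk2 had log2 fold changes of -0.19, -0.20, and 0.01 in colon and 0.12, -0.17, and -0.08 in bladder. Stat2 and Irf9, whose products act at the response element, had 0.40 and 0.34 in colon, and 0.03 and 0.05 without mouse 780. In the colon of mouse 780 their levels were 35.9 and 54.2 TPM, each above the other 5 colons (12.6 to 21.4 and 26.7 to 31.9 TPM). In bladder the log2 fold changes were 0.03 for Stat2 and -0.24 for Irf9.

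The other listed genes of the pathway were described in the same way, and none of them passed the test in colon. Of the 44 other type I targets tested, 32 had log2 fold changes above 0 in colon, with a median of 0.10, and without mouse 780 it was 15 of 43, with a median of -0.07. Ifi27l2a (0.99) and Ifitm1 (0.73, a membrane protein that blocks virus entry) had the largest changes among those with genotypes that did not overlap, which was the case for 8.24% of all genes in that direction. Without mouse 780 they had 0.63 and 0.43. The interferon gamma targets had 26 of 27 above 0 with a median of 0.61, and 14 of 27 with a median of 0.02 without mouse 780. Ido1, the enzyme that degrades tryptophan, had 1.95 (SE 0.54, adjusted p = 0.37) and 1.55 without mouse 780, and Psmb9, a subunit of the immunoproteasome, had 1.10 and 0.66. Both had genotypes without overlap also when mouse 780 was left out, where 11.4% of all genes did in that direction.

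Of the 16 sensors and adaptors tested, 8 were above 0 in colon, with a median of 0.02, and 5 of 15 with a median of -0.15 without mouse 780. Zbp1 (0.96, a sensor of Z-form nucleic acid) and Tlr3 (0.47, a receptor for double-stranded RNA) were higher in Y/T KO without overlap, as were 8.24% of all genes. Without mouse 780 Zbp1 had 0.42 and Tlr3 0.44. The interferon regulatory factors other than Irf7 and Irf9 had 4 of 7 above 0 with a median of 0.03, the ISG15 conjugation genes 2 of 4 with a median of 0.03, and the negative regulators 4 of 6 with a median of 0.07. Socs3 in the last group had 1.39 with all libraries and 0.50 without mouse 780. The p200 family, DNA-binding proteins of which several are induced by interferon, had 7 of 9 above 0 with a median of 0.54, and 4 of 8 with a median of -0.09 without mouse 780. Ifi209 of this family had 1.31 and 0.74. The lowest value of the family was that of Ifi202b, -4.72 with all libraries and -3.67 (SE 2.06) without mouse 780. Its genotypes overlapped, and its size depends on the pseudocount, since some colons held 0 TPM.

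In bladder more of the type I and interferon gamma targets lay below 0 than above, while 4 of 7 regulatory factors and 6 of 10 genes of the p200 family lay above 0, and none of these passed the test by limma. At an unadjusted p under 0.05, Y/T KO bladders had lower levels for 9 of the other type I targets and for 7 interferon gamma targets, and a higher level for 1 type I target, where 8.20% of all genes were lower and 6.64% higher at that p. Of the 43 other type I targets tested, 11 were above 0, with a median of -0.14, and without overlap 11 were lower and 2 higher, where 11.4% and 10.6% of all genes were. Oas3, a synthetase of the family of Oas1a, had -1.43 (SE 0.37, adjusted p = 0.18) and Apol9a -0.71. Of the 27 interferon gamma targets, 5 were above 0, with a median of -0.24, against a median of 0.00 over all genes tested. Tap1, a peptide transporter of antigen presentation, had -0.94 (SE 0.13, adjusted p = 0.062). Ido1 had 0.91 and was higher in Y/T KO without overlap, as in colon.

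Of the 16 sensors and adaptors in bladder, 6 were above 0, with Tlr7 (0.93, adjusted p = 0.181), a receptor for single-stranded RNA, and Unc93b1 (-0.49, adjusted p = 0.147), which carries Tlr7 to endosomes, the largest without overlap. Irf1 had -0.36 (adjusted p = 0.158), and 4 of the 7 regulatory factors were above 0. Herc6, the main ISG15 ligase of the mouse, had -0.50 in bladder, where Isg15 had -0.48. Of the negative regulators Socs3 had -1.16 and Pias1 0.21, and of the p200 family 6 of 10 were above 0, with Ifi206 at 0.76 and Ifi207 at 0.57. Several lists of cell type markers in bladder lay mostly below 0 in Y/T KO, with 8 of 8 smooth muscle markers (median -0.87), 5 of 5 neutrophil markers (median -0.98), 10 of 10 lymphocyte markers (median -0.32), 8 of 8 urothelium markers (median -0.16), and 6 of 10 macrophage markers (median -0.17). Of the endothelial markers 3 of 6 were above 0 (median 0.05), and of the colon epithelium markers 3 of 5 (median 0.02). Of the genes listed as plasmacytoid dendritic cell markers, 1 of 5 was above 0, Siglech at 1.29. In that list Ly6d was at 887 to 1397 TPM in bladders, where Siglech was at 0.754 to 2.93 TPM. Klk1 was at 778 to 2296 TPM in colons and 0.365 to 7.17 TPM in bladders. The count over this list is thus not a measure of plasmacytoid dendritic cells alone. No neutrophil, lymphocyte, or macrophage marker passed the test, and the part of these cells in the values above was not tested.

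Between the tissues, 5 of the 10 genes differed in level in each genotype. Here all 12 libraries were rescaled together, and 50.4% of 19773 genes passed the test between bladder and colon in Ctrl, 25.3% higher and 25.1% lower in bladder. Of the 10 genes, Usp18, Oasl2, and Ifit3 were higher in bladder and Oas1a and Irf7 lower, 3 and 2 of 10. In Y/T KO 51.3% of genes passed, 25.6% higher and 25.8% lower in bladder, and the 10 genes again gave 3 higher (Usp18, Ifit2, and Ifit3) and 2 lower (Oas1a and Irf7). With TPM as deposited, the median over all genes was 0.24 in Ctrl and 0.26 in Y/T KO, in place of -0.01 in both, and 6312 genes passed as higher and 3510 as lower in Ctrl bladders, in place of 5003 and 4959. The directions of the calls on the 10 genes were kept under that scaling.

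Oas1a had the largest tissue difference, with 5.82 ± 0.787 TPM in Ctrl bladders and 49.5 ± 9.28 TPM in Ctrl colons (SD, n = 3 each), a log2 difference of -3.06 (SE 0.23, adjusted p = 6.57e-07). In Y/T KO it was -3.27 (adjusted p = 3.71e-07). Its near copy Oas1g had -3.48 in Ctrl, the same direction. Irf7 was at 16.0 ± 1.04 TPM in Ctrl bladders and 34.3 ± 8.22 TPM in Ctrl colons, a log2 difference of -1.07 (adjusted p = 0.00934) and of -1.33 in Y/T KO (adjusted p = 0.00257). Usp18 was at 19.2 ± 1.10 TPM in Ctrl bladders and 4.41 ± 0.83 TPM in Ctrl colons, a log2 difference of 2.11 (adjusted p = 0.000162) and of 1.84 in Y/T KO (adjusted p = 0.000449). These 3 genes passed in both genotypes whichever library was left out and under each of the other settings tried.

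The remaining calls between tissues were less stable. Ifit3 had 0.89 in Ctrl (adjusted p = 0.0458) and 0.88 in Y/T KO (adjusted p = 0.0481), calls that were lost on leaving out 9 and 11 of the 12 libraries in turn. Oasl2 had 1.17 in Ctrl (adjusted p = 0.0355), lost without any of the 3 Ctrl bladders or without Ctrl colon 788 or 787, and 0.25 in Y/T KO (adjusted p = 0.643), where it passed at 0.82 (adjusted p = 0.0234) without the colon of mouse 780. Ifit2 had 0.95 in Y/T KO (adjusted p = 0.0246) and 0.79 in Ctrl (adjusted p = 0.0549), the former lost without Y/T KO colon 759 or 783 or Y/T KO bladder 783 or 780. Isg15 had 0.17 in Ctrl and -0.99 in Y/T KO (adjusted p = 0.104), and passed in Y/T KO without the colon of mouse 783 (-1.41, adjusted p = 0.0335). Rsad2 had -0.12 in Ctrl and 0.94 in Y/T KO (adjusted p = 0.0622), which passed without the colon of mouse 780 (1.32, adjusted p = 0.0132). Ifit1 and Mx1 passed in neither genotype. The genotypes share no libraries here, and the test of the difference between them is the one given above for tissue and genotype.

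**Figure D4:**
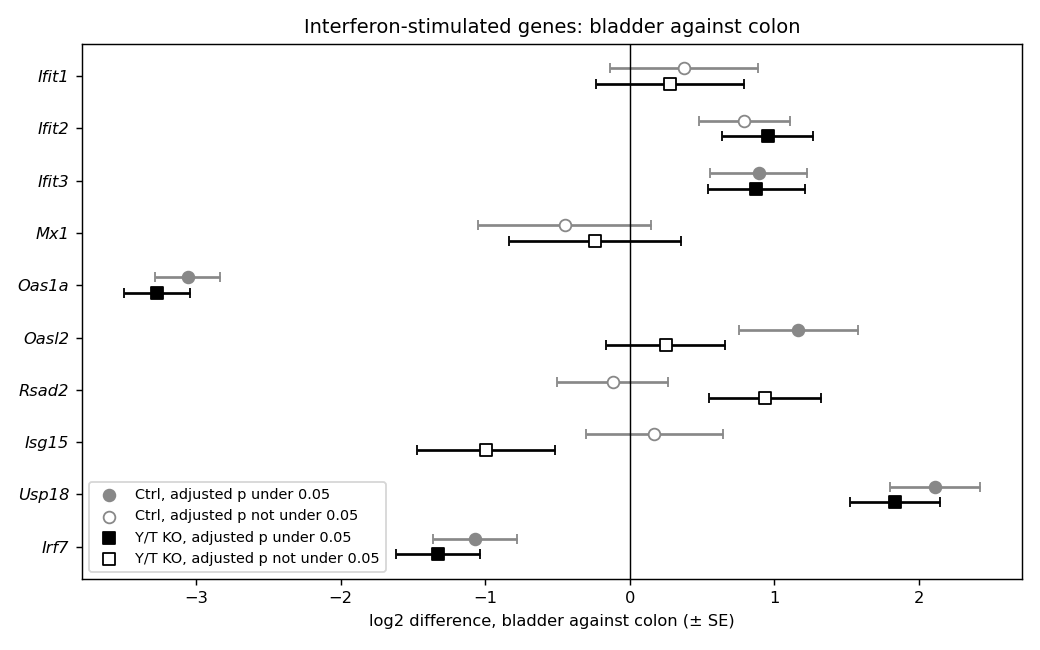
Log2 difference of bladder against colon for each of the 10 genes in Ctrl and in Y/T KO, points with standard errors. Oas1a (-3.06 and -3.27) and Irf7 lie below 0 and Usp18 (2.11 and 1.84) above 0 in both genotypes.

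The order of the 10 genes by level differed between tissues. In Ctrl colons Oas1a was highest at 44.7 ± 8.69 TPM, followed by Irf7 at 31.1 ± 7.56, Oasl2 at 23.7 ± 4.67, and Isg15 at 16.0 ± 3.20 TPM (SD, n = 3 each, rescaled within the tissue). Neighbors among these 4 overlapped in their libraries, and Isg15 did not overlap with the next, Ifit3, at 7.50 ± 0.638 TPM. Ifit1, Ifit2, Rsad2, Usp18, and Mx1 followed down to 3.85 ± 1.04 TPM, each overlapping with its neighbor. In Ctrl bladders Oasl2 stood first at 64.3 ± 9.14 TPM without overlap, followed by Isg15 (21.6 ± 1.05 TPM) and Usp18 (21.1 ± 1.19 TPM), which overlapped. Oas1a was the eighth of 10 in Ctrl bladders at 6.39 ± 0.888 TPM.

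The receptor genes upstream differed between the tissues as well. In Ctrl, the receptor genes Ifnar1 (0.37, adjusted p = 0.00706) and Ifnar2 (0.65, adjusted p = 0.0141) were higher in bladder. Ifngr1 (-1.67), Ifngr2 (-1.38), Ifnlr1 (-0.94), and Il10rb (-0.69) were lower in bladder, with adjusted p of 0.000982 or less. Jak1, Jak2, Tyk2, Stat2, and Irf9 did not pass in Ctrl, and Jak1 was higher in Y/T KO bladders than in Y/T KO colons (0.47, adjusted p = 0.00345). Of the p200 family 10 of 11 were higher in Ctrl bladders, of the interferon gamma targets 11 of 28 were higher and 2 lower, and of the other type I targets 11 of 44 were higher and 10 lower, beside the 25.3% and 25.1% of all genes given above. Of the 16 sensors and adaptors 3 were higher and 3 lower in Ctrl bladders. None of the 4 ISG15 conjugation genes and none of the 6 negative regulators passed. The macrophage markers were higher in Ctrl bladders for 9 of 10 genes, and their part in these differences was not tested.

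With all libraries kept, the 10 genes varied together over the colons more than over the bladders. Over the 6 colons the median Pearson r of the 45 pairs of genes, computed on deviations from the group means of log2 levels, was 0.88, and over the 6 bladders it was -0.02, with 23 of 45 pairs below 0. Over all 12 libraries it was 0.68, and without the colon of mouse 780 it was 0.17 over 11 libraries, with 18 of 45 pairs below 0. The value over the colons alone without mouse 780 was not computed. These are descriptions of a few libraries in which all genes share the same library scaling. The genes most like the mean of the 10, out of 16288 genes over 12 libraries (deviations from tissue means), were Parp9 (r = 0.96), Ms4a4c (0.96), Irgm2 (0.93), Gm13835 (0.92), Tgtp1 (0.92), Iigp1 (0.91), Gimap5 (0.90), Igtp (0.90), Sec61g (0.90), and 1300002E11Rik (0.90). Without the colon of mouse 780, r for Parp9 was 0.82 and its place 104, and 1300002E11Rik, at 0.91 and place 16, was the nearest of these 10 genes. Irgm2, Tgtp1, Iigp1, and Igtp, all immunity-related GTPases, had r from 0.42 to 0.70 without that colon.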

How the data were processed

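RNA of 12 libraries was compared by tissue and genotype as labelled. Per the labels, RNA was extracted with a Qiagen kit and stranded TruSeq mRNA libraries were made; the submitters' processing notes name bcl2fastq, FastQC, HISAT2, and StringTie and the GRCm38 build, without versions. The TPM, FPKM, and coverage values were made by the authors with StringTie. Deposited TPM is the share of a transcript per length, deposited FPKM is scaled to mapped fragments, and deposited coverage is reads per base. The read counts that the authors tested are not used here, so no count test was run. Rows of a gene were summed by gene identifier. Positions are those of the tables, with GRCm38 numbering. Coverage divided by FPKM gave the aligned bases of each library.

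TPM was divided by the median ratio to the geometric mean over genes, within a tissue or, between tissues, over 12 libraries. Genes with 0.5 TPM in 3 libraries were kept, log2(TPM + 0.1) was fitted with limma 3.58.1 in R 4.3.3 (intensity trend, robust), and p-values were adjusted over all genes tested by the Benjamini-Hochberg method. Fold changes are on this log2 scale, which understates changes of low genes. Each tissue was fitted alone for the genotype effect, and all 12 libraries together for the interaction and the tissue difference. The scripts were tested on simulated data. Near copies were found with BLAST+ 2.17.0, and summaries and plots were written in Python 3.11.15 (pandas 2.3.3, numpy 2.4.6, matplotlib 3.10.9). All 10 genes, the receptor and transducer genes, and in each other list and tissue the called genes and the 2 largest changes without overlap were named, with the 10 genes most like the mean of the 10. Of the genes so named, a pathway gene is not reported here, and the marker lists are given mainly by counts, medians, and summed levels. The genes and lists were chosen with earlier results of these data known. Mice 788, 783, and 780 pair the tissues, since both tissues came from the same animal, and deviations of these 3 pairs correlated at a mean r of 0.04, against -0.01 over the 15 other pairs. No library was left out of the main values. The alternatives tried were pseudocounts of 0.5 and 1 TPM, no filter, a mean of at least 1 TPM, TPM and FPKM as deposited, no trend, all libraries in one fit, the mouse as block, and each library left out in turn. Leaving out mouse 780 for the lists and correlations was chosen after seeing the data.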

Additional observations from a re-analysis of the deposited data

How the results depend on the processing

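No genotype call on the 10 genes was gained under any alternative tried, and 3 mice per group leave standard errors of up to 0.61 on the log2 scale. The number of genes called in colon was 24, with 6 without a filter on low values, 71 with all 12 libraries in one fit, and 5 to 63 when 1 library was left out. For bladder it was 55 (11 to 51 with 1 library left out), for the interaction 8 (6 to 25), and between tissues 9962 in Ctrl (8615 to 9994) and 10152 in Y/T KO (8995 to 10477). Each colon library, and each bladder library except Y/T KO bladder 782, moved the count of its tissue by more than 1.5 times when left out, as Ctrl colon 786, Y/T KO colon 759, and Y/T KO bladder 782 did for the interaction. The median of the 10 genes ran from -0.21 (without Y/T KO colon 780) to 0.58 (without Y/T KO colon 783) in colon, and from -0.10 (without Y/T KO bladder 783) to 0.076 (without Y/T KO bladder 782) in bladder. Mx1 in colon was 0.0056 with a pseudocount of 1 TPM, and with TPM as deposited the tissue difference was 0.14 for Rsad2 in Ctrl and 0.025 for Mx1 in Y/T KO. Of the values of the 10 genes under alternatives, 127 of 140 kept their sign and call in colon, 134 of 140 in bladder, 185 of 200 in the interaction, and 176 and 173 of 200 between tissues in Ctrl and Y/T KO. The cause of the others was not tested. The log2 fold changes that changed sign when 1 library was left out were, in colon, -0.34 to 0.87 for Ifit1, -0.53 to 0.12 for Ifit2, -0.13 to 0.76 for Ifit3, -0.052 to 1.12 for Isg15, -0.27 to 0.42 for Irf7, -0.61 to 0.53 for Mx1, -0.083 to 0.29 for Oas1a, -0.15 to 0.86 for Oasl2, and -0.13 to 0.62 for Usp18. In bladder they were -0.062 to 0.42 for Ifit1, -0.15 to 0.076 for Ifit2, -0.33 to 0.53 for Mx1, and -0.22 to 0.075 for Oas1a. Interaction values ran from -0.52 to 0.69 for Ifit1, -0.48 to 0.17 for Ifit2, -0.44 to 0.45 for Ifit3, -0.11 to 0.58 for Irf7, -0.75 to 0.39 for Mx1, and -0.17 to 0.57 for Usp18. Between tissues they ran from -0.25 to 0.086 for Rsad2 in Ctrl, and from -0.29 to 0.91 for Ifit1, -0.82 to 0.31 for Mx1, and -0.17 to 0.82 for Oasl2 in Y/T KO.

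With the mouse as a block (pairing of colon and bladder), 9 genes passed the interaction, 10028 the tissue test in Ctrl, and 10314 that in Y/T KO, and the block changed no call on the 10 genes. No paired analysis was possible within a tissue because the genotypes share no mice.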

Other observations

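The genes of this paragraph were chosen after their values were seen. Ifi202b, of the p200 family, was at 6.21, 21.6, and 11.4 TPM in the Ctrl colons of mice 788, 786, and 787 but 8.04, 0, and 0 TPM in colons of the Y/T KO mice 759, 783, and 780. Bladders of the Ctrl mice 784, 785, and 788 held 0, 28.3, and 20.8 TPM, those of the Y/T KO mice 782, 783, and 780 only 0.109, 0, and 0.0869 TPM. The genotypes overlapped in both tissues. Mice 783 and 780 were below 0.1 TPM in both tissues and mouse 788 was above 6 TPM in both.

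Trim25, a ligase for ISG15 and for the RNA sensor RIG-I, was at 62.4, 66.7, and 15.5 TPM in Ctrl colons, with 54.6, 60.9, and 16.0 TPM in those of Y/T KO, so that 1 mouse of each genotype (787 and 780) lay apart from the other 4. Its bladder values had no such gap. Ifit1bl1, a relative of Ifit1 on the same chromosome, was at 91.6 to 182 TPM in colons and 0.709 to 1.30 TPM in bladders, a tissue difference that Ifit1 did not have.

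On the rescaled scale, the named genes of the lists held a pair whose genotypes did not overlap, in opposite directions in the 2 tissues. As deposited, Socs3 overlapped in bladder, with 17.97 TPM in Ctrl mouse 784 and 18.3 TPM in Y/T KO mouse 782. Siglech overlapped in colon, with 0.6229 TPM in Ctrl mouse 788 and 0.6245 TPM in Y/T KO mouse 759. The share of all genes with such opposite directions was not computed. Socs3 had a log2 fold change of 1.39 in colon and -1.16 in bladder, with an interaction of 2.55 (SE 0.95, adjusted p = 0.322 by limma). Siglech, a receptor of plasmacytoid dendritic cells, was at 0.754 to 0.956 TPM in Ctrl bladders and 1.61 to 2.93 TPM in Y/T KO bladders, with an interaction of -1.93 (SE 0.50, adjusted p = 0.221). Neither passed the test of the difference.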
